A study of Mus musculus with 48 samples.

Results

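The mitochondrially encoded genes of mouse subcutaneous white adipose tissue (sWAT) are described here under twice-a-night (TAN) and ad-lib feeding. They were chosen by name alone, as every gene of the count table whose symbol begins with mt-, which gave 37 of 54532 genes. Of these, 13 encode proteins, 2 encode ribosomal RNAs and 22 encode transfer RNAs, and all 37 lie on chromosome MT of GRCm38 at the positions that GENCODE M21 gives them. The filter on low counts kept 27 of the 37, namely the 13 protein genes, both rRNA genes and 12 of the 22 tRNA genes.

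Bulk RNA was sequenced from inguinal fat of C57BL/6 mice aged 8 months, by the paper males of C57BL/6J, whose diet label was either Ad-Lib or TAN. TAN mice had food in separate windows early and late in the night, while Ad-Lib mice could eat at any hour. Fat was taken at 8AM, 12PM, 4PM, 8PM, 12AM and 4AM, with 4 libraries of each diet at each time and 48 in all. Replicates are taken as separate mice from their labels, and the spread between them is the only error that the p-values measure. The sources name 2 materials, a stromal vascular fraction in the series' design text and whole sWAT in the paper. The adipocyte markers Adipoq, Plin1 and Lep had counts in all 48 libraries, with a median of 2752 CPM (counts scaled to a library of 1000000) for Adipoq.

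Mitochondrial DNA is a small circle, copied and transcribed inside the organelle apart from the nucleus. Its protein genes specify core subunits of respiratory complexes I, III, IV and V, and the remaining subunits come from nuclear genes, so that a working respiratory chain needs both genomes. Both strands are transcribed as long precursors, which are cut mostly at the tRNAs that stand between the other genes. After this, most mRNAs and the rRNAs receive short poly-A tails. In adipose tissue, mitochondrial content follows the mass and the oxidative state of adipocytes, and it rises when white fat takes on features of brown fat.

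The tRNAs below had the most counts of all mt- tRNAs (mt-Tp, mt-Tc and mt-Tn) or passed a test (mt-Tc, mt-Tp and mt-Te). They carry proline, cysteine, asparagine and glutamate, respectively. All are encoded on the minus strand of GRCm38, and capitals mark the anticodon, which pairs with the codon of the mRNA.
mt-Tp, MT:15356-15422: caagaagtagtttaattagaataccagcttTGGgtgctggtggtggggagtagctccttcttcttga
mt-Tc, MT:5192-5257: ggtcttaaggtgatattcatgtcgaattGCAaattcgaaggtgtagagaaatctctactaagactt
mt-Tn, MT:5089-5159: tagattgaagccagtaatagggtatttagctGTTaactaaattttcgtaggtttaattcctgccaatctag
mt-Te, MT:14071-14139: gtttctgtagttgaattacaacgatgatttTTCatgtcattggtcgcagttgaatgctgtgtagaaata

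The next sequences bear on which reads could be assigned to a gene. The nuclear genome holds copies of mitochondrial DNA, and chromosome 1 has a stretch of 7 annotated copies at 1:24611535-24616197 on the minus strand. mt-Co2 (MT:7013-7696), a subunit of complex IV, had no difference from its copy Gm28661 over the 681 bases of that copy, and their shared first 90 bases follow. mt-Nd3 (MT:9459-9806), a subunit of complex I, differed from its copy Gm28438 at 1 of 345 bases, T3C, counted from the gene's first base and shown in capitals.
mt-Co2, MT:7013-7102: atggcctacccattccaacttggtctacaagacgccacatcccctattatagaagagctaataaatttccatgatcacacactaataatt
mt-Nd3, MT:9459-9548: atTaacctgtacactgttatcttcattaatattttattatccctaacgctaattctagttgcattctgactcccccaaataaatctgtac
Gm28438, 1:24613030-24613119: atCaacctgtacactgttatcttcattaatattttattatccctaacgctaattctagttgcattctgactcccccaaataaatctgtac

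mt-Co1 (MT:5328-6872), the catalytic subunit of complex IV, is shown against Gm13340, its longest copy, on chromosome 2 (2:22588103-22589647, minus strand). These differed at 37 of 1545 bases, of which 3 lie in the first 150 bases, as C54A, A60G and G87A.
mt-Co1, MT:5328-5477: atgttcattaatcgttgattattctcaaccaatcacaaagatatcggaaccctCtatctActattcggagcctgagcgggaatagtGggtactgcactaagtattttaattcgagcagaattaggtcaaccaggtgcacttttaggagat
Gm13340, 2:22589498-22589647: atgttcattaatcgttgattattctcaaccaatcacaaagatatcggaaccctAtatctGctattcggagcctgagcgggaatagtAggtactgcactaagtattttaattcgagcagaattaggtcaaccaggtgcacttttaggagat

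Mitochondrial genes also overlap each other, and the longest overlap is 43 bases between mt-Atp8 and mt-Atp6, the subunits of complex V. Capitals mark these bases in the last 90 bases of mt-Atp8. The overlap of mt-Nd5 and mt-Nd6, which lie on opposite strands, is 14 bases.
mt-Atp8, MT:7880-7969: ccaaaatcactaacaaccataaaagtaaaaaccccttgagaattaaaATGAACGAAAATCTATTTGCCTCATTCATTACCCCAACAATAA

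Library totals ranged from 15636378 to 29913310 counts. Libraries stood apart in several ways that touch the results below. The time labels of the count table lie 12 h from those of the study's own expression table, where 48 of 48 libraries were closest to the column that carries their animal's name at the opposite hour, and 0 to the one at the same hour, over 963 genes. The labels of the count table are used here, and a fixed shift leaves every comparison of diets at a labelled time as it is. By these labels the clock gene Arntl had means of 32.3 CPM at 8AM and 15.3 at 8PM in ad-lib, and 46.0 and 4.33 in TAN. The clock gene Dbp had means of 102 CPM at 4PM and 27.4 at 4AM in ad-lib, and 154 and 9.93 in TAN. Which labels are right was not tested. Summed CPM of 10 lymphocyte markers ranged from 9.02 to 366 in TAN and from 927 to 1583 in ad-lib libraries at 4PM, and none of the 10 was at 0 in any library. Skeletal muscle markers summed to 6962 CPM in ad-lib replicate 3 of 4AM against 37.2 to 60.4 CPM in its group. Counts on loci of the TEC biotype, provisional gene models without a firm annotation, made up 0.0294% to 0.114% of a library. In bulk tissue, fewer cells of a type and less RNA per cell cannot be told apart.

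The mt- genes differed in level by orders of magnitude. mt-Co1 alone held 54.2% of all mt- counts over the 48 libraries, and mt-Cytb, the mitochondrial subunit of complex III, held 17.3%. The complex I genes mt-Nd1, mt-Nd4, mt-Nd2, mt-Nd5 and mt-Nd6 followed with 9.45%, 6.30%, 4.45%, 3.79% and 1.35%. The 2 rRNAs, mt-Rnr2 of the large and mt-Rnr1 of the small mitoribosomal subunit, held 1.31% and 1.03%, and since the RNA was selected for poly-A these do not give their share of total RNA. The other 6 protein genes together held 0.417%.

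Per kb of gene length, the median CPM was 19395 for mt-Co1, 8474 for mt-Cytb and 5656 for mt-Nd1. mt-Nd4 and mt-Nd2 were neighbours in this order, at 2533 and 2504 CPM per kb, and their ranges over libraries overlapped almost wholly. Of mt-Nd4, 876 of 1378 bases are identical to a nuclear copy, which makes its place in this order uncertain. mt-Tp, at 2294 CPM per kb, stood among the complex I mRNAs although it is a tRNA of 67 bases. mt-Rnr1 reached 565 and mt-Rnr2 440.4 CPM per kb. The lowest genes of their complexes were mt-Nd4l (complex I) at 9.59, mt-Co2 (complex IV) at 66.6 and mt-Atp8 (complex V) at 3.34 CPM per kb. Of the tRNAs, mt-Tc and mt-Tn came after mt-Tp, at 285 and 76.0 CPM per kb. Counts per length of genes this short depend on how reads longer than the gene were counted, which is not given in the sources used here.

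Since the RNA was selected for poly-A, counts on tRNA genes here and below do not give the level of mature tRNAs. Among the 22 tRNA genes, mt-Tp, mt-Tc and mt-Tn had counts in all 48 libraries. mt-Tf, mt-Tv and mt-Td had 0 counts in all 48, which in a library allows up to 3 counts. mt-Ts1, mt-Tk, mt-Tt, mt-Ti, mt-Ta, mt-Tm and mt-Tq were at 0 in 47, 46, 43, 41, 35, 34 and 29 libraries, respectively, and did not pass the filter. mt-Tl1, the fourth by mean count, had a mean of 28.0 counts and was at 0 in 2 libraries. The remaining 8 that passed, mt-Ty, mt-Tw, mt-Te, mt-Tl2, mt-Ts2, mt-Tg, mt-Th and mt-Tr, had means of 2.88 to 27.3 counts, so that their values rest on few reads.

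**Figure D1:**
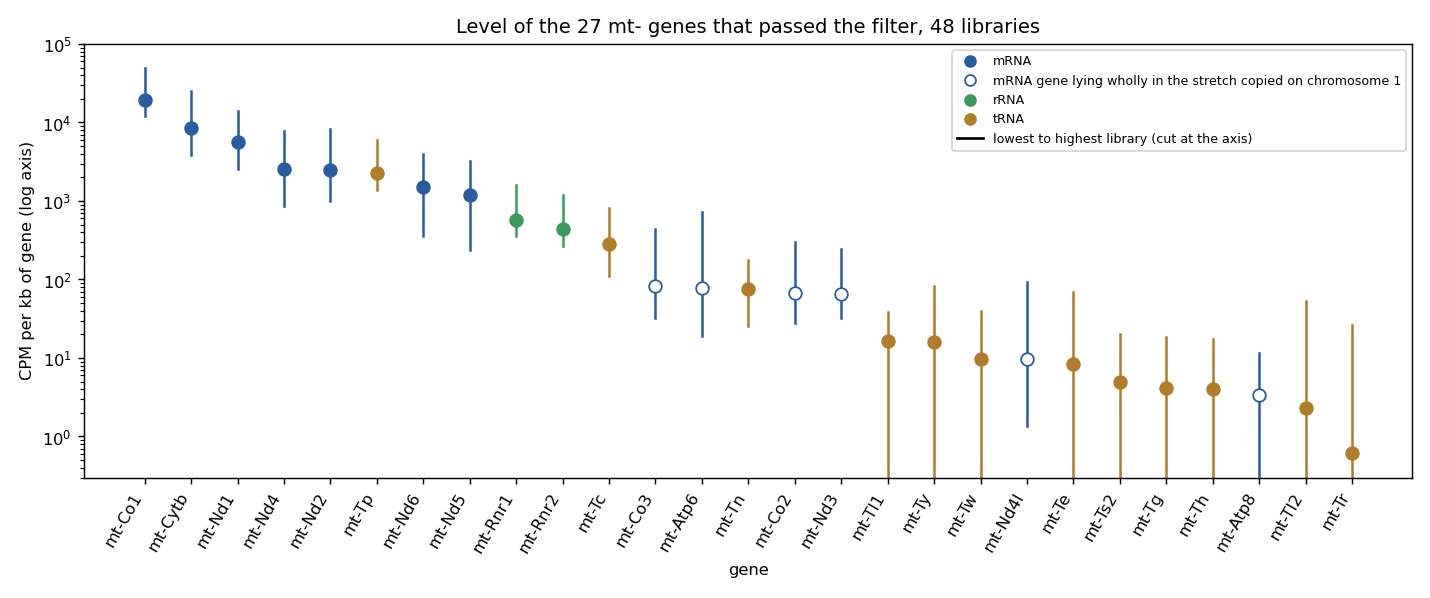
CPM per kb of gene length (log axis) of the 27 mt- genes that passed the filter, with the median over 48 libraries as a circle and a line from the lowest to the highest library. Open circles are the 6 mRNA genes that lie wholly in the stretch copied on chromosome 1, all between 3.34 and 81.5 CPM per kb, and the 7 other mRNA genes lie between 1186 and 19395 CPM per kb.

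The low mRNAs were the genes of the stretch that chromosome 1 copies. mt-Co2, mt-Atp8, mt-Atp6, mt-Co3, mt-Nd3 and mt-Nd4l had medians of 3.34 to 81.5 CPM per kb, and the 7 other protein genes had 1186 to 19395 CPM per kb, with no overlap. BLAST of the transcripts found 100% identity of mt-Co2, mt-Atp6, mt-Co3 and mt-Nd4l with Gm28661, Gm10925, Gm28437 and Gm10222 over 681, 678, 783 and 294 bases. mt-Nd4, of which the first 876 of 1378 bases are identical to Gm28439, and mt-Co1, of which bases 1063 to 1545 match Gm29216 with 1 mismatch, reach into the stretch only in part. mt-Atp8 lies between mt-Co2 and mt-Atp6 and has no annotated copy in this stretch. Its best match among other transcripts, Gm28925 elsewhere on chromosome 1, had 81.4% identity over 167 bases and 0 counts.

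Counts on 4 of the copies were of the order of those on their genes. Gm28661 had 825 counts on average (366 to 3420) beside 1105 on mt-Co2 (451 to 3151). Gm10925 had 1207 counts beside 1703 on mt-Atp6, and the copy exceeded the gene in the median library, at 1.09 counts for each count on mt-Atp6. For mt-Co3 and mt-Nd4l the median library had 0.670 and 0.719 counts on the copy for each count on the gene, and for mt-Nd3 it had 0.139. For mt-Co1 and mt-Nd4 it had 0.000756 and 0.00252. The 7 copies together held 0.192% to 0.687% of the number of mt- counts. A read that fits both places equally well could have been given to either or to none, and the levels and changes of the 6 genes are therefore uncertain. The same holds in part for mt-Nd4, over 876 of its 1378 bases, and for mt-Co1, over bases 1063 to 1545.

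The share of library counts on mt- genes was 3.41% to 9.14% in ad-lib and 4.40% to 11.9% in TAN libraries, so that the diets overlapped over the day. It is a sum over the members and is described without a test. At 12AM it was 5.75, 4.81, 4.27 and 4.66% in the 4 ad-lib and 6.55, 6.38, 6.77 and 11.9% in the 4 TAN libraries, and the groups did not overlap. The TAN mean there was 7.90 ± 2.67% (SD, n = 4) against 4.87 ± 0.629%, and TAN replicate 4 was far above the other 3. At 12PM the shares were 5.20, 3.57, 5.44 and 5.45% in ad-lib and 5.78, 6.60, 5.71 and 6.98% in TAN libraries, again without overlap. At 4PM they were 5.20, 4.72, 4.89 and 5.02% in ad-lib, all close together, and 6.57, 6.24, 4.89 and 8.52% in TAN libraries, of which 1 lay within the ad-lib range. At 8AM, 8PM and 4AM the means of TAN and ad-lib were 6.10% and 6.21%, 6.01% and 5.76%, and 6.01% and 5.77%, with overlapping libraries at each of these times.

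The make-up of the mt- counts varied too. mt-Co1 held 43.1% to 65.0% of mt- counts in ad-lib and 46.5% to 71.3% in TAN libraries. At 8PM it held 47.8, 47.4, 48.4 and 46.7% in the ad-lib and 57.7, 58.9, 71.3 and 65.0% in the TAN libraries, which did not overlap. At 12PM, rRNA counts per 100 mRNA counts were 2.55, 4.02, 3.01 and 2.44 in ad-lib and 1.91, 1.86, 1.51 and 1.59 in TAN libraries, lower in every TAN library than in any ad-lib library. In the same libraries, tRNA counts per 100 mRNA counts were 0.395 to 0.567 in ad-lib and 0.203 to 0.290 in TAN. At 8PM the mean of rRNA counts per 100 mRNA counts was 3.15 ± 1.43 in TAN and 2.55 ± 0.573 in ad-lib (SD, n = 4 each), with overlapping libraries.

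The minus strand of MT carries 9 of the 37 genes, mt-Nd6 and 8 tRNAs, and the plus strand 28. Counts on the minus-strand genes for each 100 on the plus-strand genes were 2.23, 1.76, 2.02 and 1.65 in ad-lib and 1.31, 1.09, 0.675 and 0.738 in TAN libraries at 8PM, lower in all 4 TAN libraries. At 4PM the means were 2.49 in ad-lib and 1.66 in TAN, also without overlap. Most minus-strand counts were on mt-Nd6, with a mean of 16568 counts beside 3506 for mt-Tp and 469 for mt-Tc. The ratio thus largely follows mt-Nd6 and is not a trait of the strand, and mt-Tc was called as higher in TAN at 8PM. Whether libraries kept strand is not given in the sources used here. mt-Tp, on the minus strand, stood in no fixed ratio to mt-Cytb, which lies near it on the plus strand. At 12PM the counts of mt-Tp for each 100 of mt-Cytb were 2.80, 2.74, 2.17 and 2.08 in ad-lib and 1.44, 1.25, 1.04 and 0.959 in TAN libraries, all lower in TAN. At 8PM they were 1.51, 1.42, 1.38 and 1.54 in ad-lib and 2.69, 1.74, 2.50 and 1.71 in TAN libraries, all higher in TAN. At 4AM the means were 1.89 in ad-lib and 1.26 in TAN, without overlap. At 8AM, 4PM and 12AM the libraries of the diets overlapped in this ratio.

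**Figure D2:**
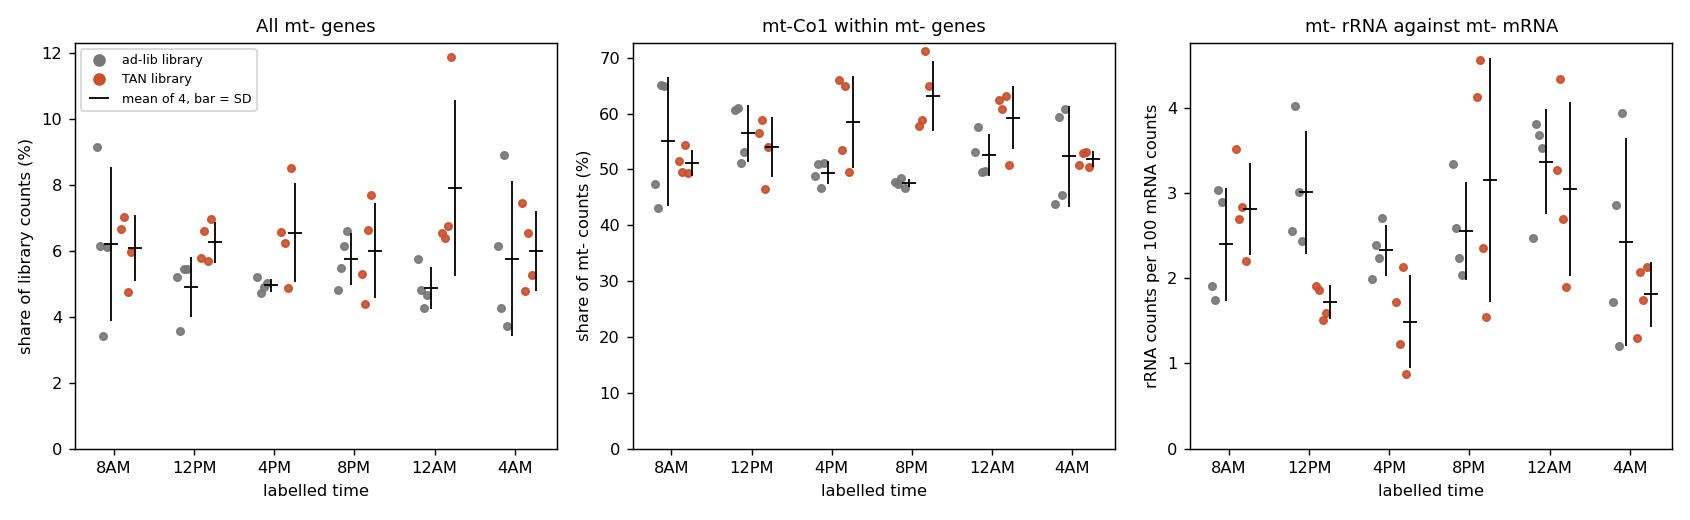
Share of library counts on the 37 mt- genes (%), mt-Co1 as a share of mt- counts (%) and mt- rRNA counts per 100 mt- mRNA counts, each by labelled time, with a point for each library and mean and SD of the 4 libraries of a diet. TAN libraries lie above all ad-lib libraries in the first panel at 12PM and 12AM and in the second at 8PM, and below them in the third at 12PM.

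The comparison of diets at a labelled time asks whether TAN feeding changed each transcript at that hour. It was made with edgeR's quasi-likelihood test and Benjamini-Hochberg (BH) adjustment over the 19977 genes that passed the filter, and a gene was called at an adjusted p under 0.05. The mt- genes called were 1 of 27 tested at 4PM, against 15.3% of all genes tested, and 3 of 27 at 8PM, against 11.7%. At 8AM, 12PM, 12AM and 4AM edgeR called 0 mt- genes, against 0.015%, 0.0901%, 0.15% and 0% of all genes. At these times 0, 4, 7 and 1 mt- genes had an unadjusted p under 0.05, against 6.58%, 7.37%, 17.5% and 2.64% of all genes. DESeq2 called 0, 1, 5 and 0, and limma voom called 0 at each of them. The share of all genes called was computed for the main edgeR fit only. Counts of mt- genes called by other tests or fits therefore have no background beside them.

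Complex IV gave the call at 4PM. mt-Co1 had 22566, 21456, 19119 and 22182 CPM in the ad-lib libraries and 50815, 34676, 35041 and 46501 CPM in the TAN libraries. Every TAN library was above every ad-lib library. mt-Co1 rose with a log2 fold change (TAN minus ad-lib) of 0.97 ± 0.32 (SE), with an adjusted p of 0.0390 in edgeR's quasi-likelihood test with BH adjustment. The call was lost in 6 of the 8 fits that left out 1 library of this time, all but those without TAN replicate 2 or 3, with log2 fold changes of 0.86 to 1.07. It was also lost with total counts in place of scaling factors, at 0.62, where the scaling itself had moved every fold change at 4PM by 0.34. Summed CPM of the 8 adipocyte markers also did not overlap at 4PM, at 17501 to 25501 in ad-lib and 38301 to 64699 in TAN libraries. The part of these markers and of the lymphocyte markers in the mt-Co1 result was not tested beyond a fit with the lymphocyte markers as a covariate. In that fit the log2 fold change of mt-Co1 was 0.44 with an adjusted p of 0.492 by edgeR. The lymphocyte markers also separate the diets at 4PM, so they and TAN feeding cannot be told apart there. With the TEC share as a covariate the log2 fold change of mt-Co1 was 0.85 with an adjusted p of 0.166 by edgeR.

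mt-Co1 was also the mt- gene called in the mean over the 6 times, with a log2 fold change of 0.50 ± 0.13 (SE) and an adjusted p of 0.0222 (edgeR, BH), against 5.42% of all genes. The call held in all 48 fits that left out 1 library, with 0.46 to 0.54, and was lost with the TEC share as a covariate, at 0.45 with an adjusted p of 0.0645 by edgeR. At 12AM its CPM was 30935, 28994, 19445 and 22069 in ad-lib and 41904, 50835, 55345 and 76377 in TAN libraries, without overlap, and the log2 fold change of 1.15 ± 0.33 (SE) had an adjusted p of 0.118 by edgeR, which misses the threshold. mt-Co2 and mt-Co3, the other mitochondrial subunits of complex IV, had log2 fold changes of 0.73 and -0.19 at 4PM, neither called.

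Complex I gave a call at 8PM, in the other direction. mt-Nd5, a subunit of its membrane arm, had 1909, 2079, 2308 and 2407 CPM in ad-lib and 519.8, 427, 489 and 1159 CPM in TAN libraries. All 4 TAN libraries were below all ad-lib libraries. mt-Nd5 fell by 1.75 on the log2 scale (SE 0.58), with an adjusted p of 0.0429 in edgeR's quasi-likelihood test with BH adjustment. This call held without TAN replicate 4 and was lost in the 7 other fits that left out 1 library of 8PM, with log2 fold changes of -2.18 to -1.58. It was also lost without a filter on low counts, with an adjusted p of 0.0811, and with 8PM fitted alone, with an adjusted p of 0.0815 by edgeR. With the TEC share as a covariate the direction of mt-Nd5 turned, to a log2 fold change of 0.42 with an adjusted p of 0.732 by edgeR. Adipocyte markers overlapped between the diets at 8PM, at 12985 to 37641 CPM in ad-lib and 8655 to 66699.9 CPM in TAN libraries. mt-Nd6, encoded on the opposite strand, had a log2 fold change of -1.37 ± 0.57 (SE) and an adjusted p of 0.103 by edgeR. Its CPM was 736, 715, 911 and 864 in ad-lib and 394, 298, 190.2 and 362 in TAN libraries, again without overlap. mt-Nd1, mt-Nd2, mt-Nd3 and mt-Nd4 had log2 fold changes of -0.31, -0.33, 0.41 and -0.68 at 8PM, none called. mt-Nd4l, at -1.73, had only 9 to 531 counts over the 48 libraries and an adjusted p of 0.0936 by edgeR.

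mt-Cytb of complex III was not called by edgeR at any time, and DESeq2 called it at 12AM. Its CPM was 8188, 7487, 7076 and 7009 in ad-lib and 9862, 11793, 8558 and 18003 in TAN libraries at 4PM. The groups did not overlap there, and the log2 fold change was 0.70 ± 0.37 (SE) with an adjusted p of 0.177 by edgeR. In complex V, mt-Atp6 had 27.6 to 275 CPM in ad-lib and 18.2 to 36.3 CPM in TAN libraries at 8PM, which overlapped, with a log2 fold change of -2.14 and an adjusted p of 0.0585 by edgeR. At 12PM it had 28.9, 25.9, 41.6 and 66.5 CPM in ad-lib and 36.8, 43.7, 49.6 and 492 CPM in TAN libraries, and the log2 fold change of 1.93 (adjusted p 0.594 by edgeR) rests on TAN replicate 4. DESeq2 called mt-Atp6 at 8PM. These counts cannot be separated from those of its identical copy. mt-Atp8 had 2 to 47 counts and log2 fold changes of 0.32 to 1.32.

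In the fit over all groups without covariates, the number of protein genes with a positive log2 fold change was not the same at each time. The log2 fold change was above 0 for 13 of 13 protein genes at 12AM, against 42.5% of all genes tested, with a median of 0.82 for the protein genes and -0.14 for all genes. It was above 0 for 12 of 13 at 4PM, against 46.3% (medians 0.59 and -0.09), and for 12 of 13 at 12PM, against 52.7% (medians 0.45 and 0.04). At 8PM 4 of 13 were above 0, against 45.5% (medians -0.36 and -0.10). At 8AM 4 of 13 and at 4AM 8 of 13 were above 0, against 50.8% and 50.3%. These genes share precursors and libraries, and the counts are given as a description. The genes of the stretch copied on chromosome 1 count alike here, although their changes are uncertain. A TAN effect that differs between times was called by edgeR for mt-Rnr2, mt-Tp and mt-Tc and for no protein gene. With the lymphocyte markers as a covariate, 5 of 13 were above 0 at 4PM (median -0.17) and 10 of 13 at 12AM (0.27). In that fit, 13 of 13 were above 0 at 12PM (0.84) and 3 of 13 at 8PM (-0.48). The TEC covariate gave 10 of 13 at 8PM (0.42), 12 of 13 at 4PM (0.96) and 13 of 13 at 12AM (1.33). The number above 0 thus moved with the lymphocyte covariate at 4PM and with the TEC covariate at 8PM. In these cases the covariate separates the diets, so it and TAN feeding cannot be told apart. The scaling factors raised every log2 fold change by 0.34, 0.24 and 0.31 at 4PM, 8PM and 12AM compared with total counts, so the direction of genes with smaller values at these times depends on the scaling.

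**Figure D3:**
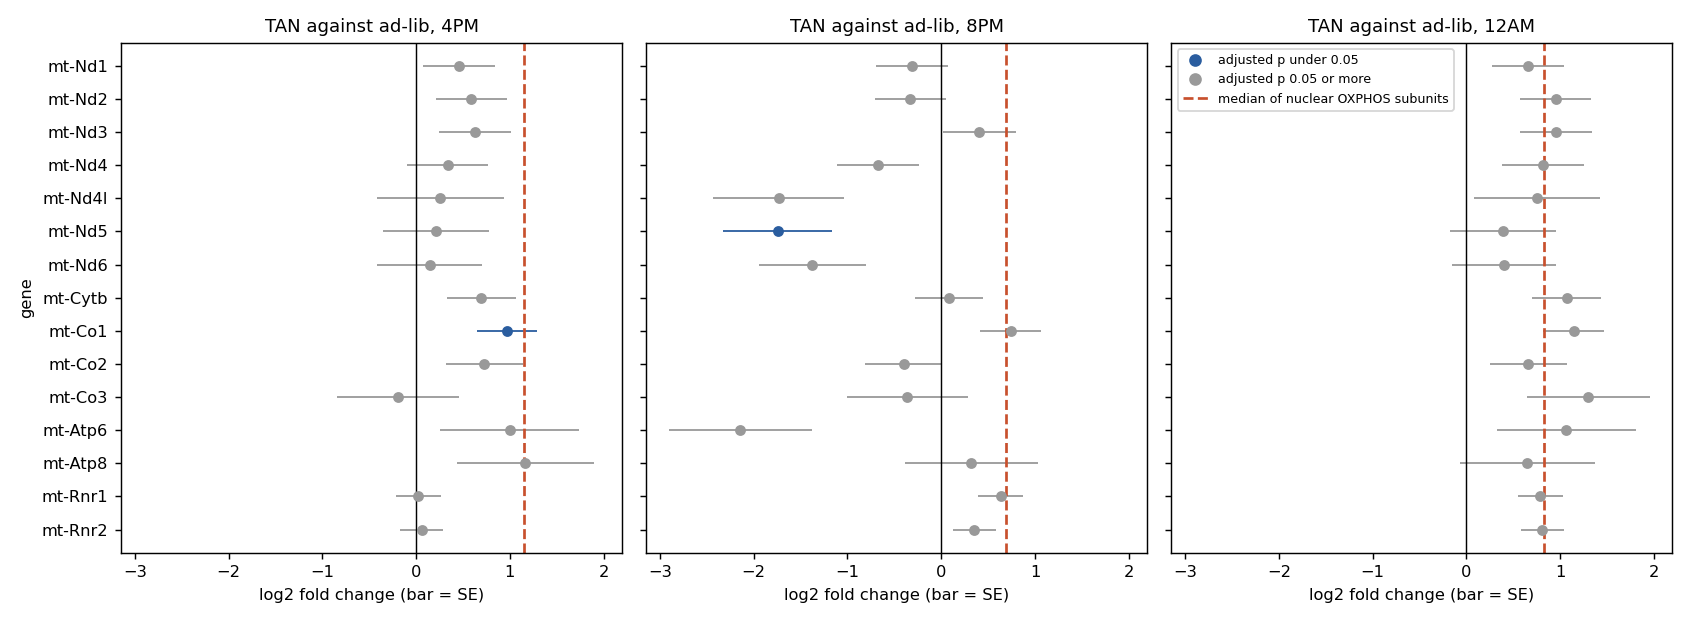
Log2 fold change of TAN over ad-lib with its SE for the 13 protein and 2 rRNA genes at 4PM, 8PM and 12AM, in which blue points are the genes called by edgeR and the dashed line is the median of 75 nuclear subunits of the respiratory complexes. At 12AM all 15 points lie above 0, near the nuclear median of 0.83, and at 8PM 9 of the 13 protein genes lie below 0 while the nuclear median is 0.69.

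The rRNAs showed their largest levels in TAN libraries at 12AM. mt-Rnr2 had 846, 1118, 733 and 816 CPM in ad-lib and 1232, 1912, 1290.1 and 1722 CPM in TAN libraries, and mt-Rnr1 had 550.4, 718, 652 and 688 CPM and 882, 1549, 1005 and 1066 CPM. Neither overlapped between diets. Adipocyte markers at 12AM were 25247 to 33823 CPM in ad-lib and 32195 to 64586 CPM in TAN libraries, which overlapped, and their part in these levels was not tested. The rRNAs' log2 fold changes of 0.81 ± 0.23 and 0.79 ± 0.24 (SE) for mt-Rnr2 and mt-Rnr1 had adjusted p of 0.118 and 0.130 in edgeR's quasi-likelihood test with BH adjustment. Without TAN replicate 1 of 12AM, edgeR called 5 mt- genes at this time, mt-Co1, mt-Cytb, mt-Rnr1, mt-Rnr2 and mt-Tp. DESeq2 called the same 5 genes with all libraries. The share of all genes called was computed for neither. At 4PM both rRNAs had log2 fold changes near 0, 0.02 for mt-Rnr1 and 0.06 for mt-Rnr2, where mt-Co1 was at 0.97.

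Among the tRNAs, mt-Tc gave a call at 8PM. It had 17.2, 13.6, 15.6 and 18.6 CPM in ad-lib and 54.2, 37.0, 37.7 and 34.3 CPM in TAN libraries. The lowest TAN library was above the highest ad-lib library. mt-Tc rose with a log2 fold change of 1.33 ± 0.33 (SE) and an adjusted p of 0.0114 in edgeR's quasi-likelihood test with BH adjustment. The call held in all 8 fits that left out 1 library of 8PM, and it was lost with 8PM fitted alone, with an adjusted p of 0.0524, and with the TEC share as a covariate, at 0.46 with an adjusted p of 0.575 by edgeR. At 12PM the order was turned round, with 38.6, 26.8, 27.7 and 18.9 CPM in ad-lib and 11.7, 15.6, 11.1 and 7.29 CPM in TAN libraries. These did not overlap either, but the log2 fold change of -1.29 ± 0.33 (SE) had an adjusted p of 0.195 by edgeR, while DESeq2 called it.

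mt-Te was the third gene called at 8PM, on very few reads. Its counts were 17, 40, 40 and 16 in the ad-lib and 0, 0, 0 and 5 in the TAN libraries. It passed edgeR's test as lower in TAN, with an adjusted p of 0.0494 (BH), and its fitted log2 fold change of -4.13 rests on a group with 0 counts in 3 of 4 libraries and is not a measure of size. The call held without TAN replicate 4 and was lost in the 7 other fits that left out 1 library of 8PM, without a filter on low counts, with the replicate block, with 8PM fitted alone and with the TEC share as a covariate. The gene lies next to mt-Nd6 on the same strand. mt-Tp, the tRNA gene with the most counts, was not called by edgeR at any time in the fit over all groups. At 4PM it had 138, 120.1, 116 and 151 CPM in ad-lib and 229, 166, 224 and 219 CPM in TAN libraries. The groups did not overlap, and the adjusted p was 0.0904 by edgeR. mt-Tp was called with 4PM fitted alone, and DESeq2 called it at 12AM.

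Counting genes whose 4 TAN and 4 ad-lib libraries did not overlap, TAN was above in 5 of the 27 tested mt- genes at 4PM (mt-Co1, mt-Cytb, mt-Co2, mt-Nd3 and mt-Tp), against 12.8% of all genes, and below in 1, mt-Tr, against 17.8%. At 8PM TAN was above in mt-Rnr1 and mt-Tc, against 4.55% of all genes, and below in mt-Nd5, mt-Nd6, mt-Nd4l and mt-Te, against 11.6%. At 12AM it was above in 4 genes, mt-Co1, mt-Rnr1, mt-Rnr2 and mt-Tp, against 3.59%, and below in 0, against 5.54%. At 12PM it was above in mt-Cytb, mt-Co2 and mt-Atp8, against 3.3%, and below in mt-Tp and mt-Tc, against 1.54%. At 4AM mt-Tc was below, against 1.18%, and 0 were above, against 1.91%. At 8AM the diets overlapped for all 27, against 2.03% of all genes with TAN above and 1.05% with TAN below.

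**Figure D4:**
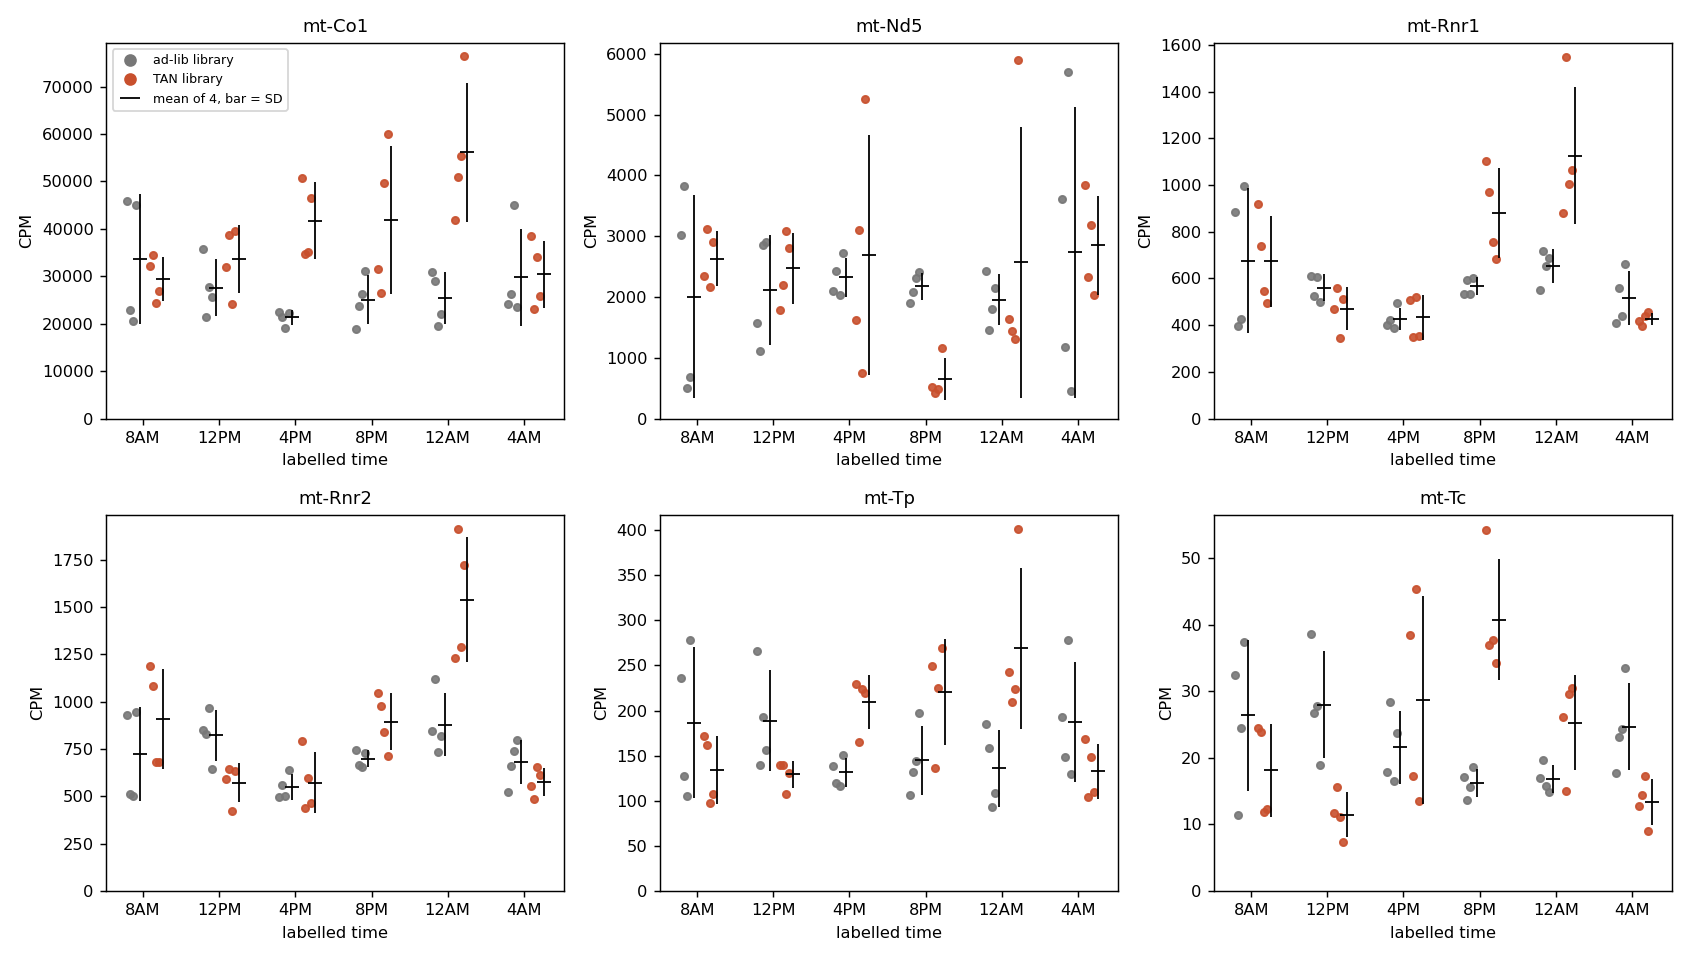
CPM of mt-Co1, mt-Nd5, mt-Rnr1, mt-Rnr2, mt-Tp and mt-Tc by labelled time, with a point for each library and mean and SD of the 4 libraries of a diet. The TAN libraries of mt-Co1 lie between 34676 and 50815 CPM at 4PM, above all ad-lib libraries, and those of mt-Nd5 between 427 and 1159 CPM at 8PM, below all ad-lib libraries.

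The effect of TAN itself differed between times for 3 of the 27 genes, against 8.98% of all genes tested. In edgeR's quasi-likelihood F test with BH adjustment, mt-Tc had an adjusted p of 0.00612, mt-Tp of 0.0177 and mt-Rnr2 of 0.0442. The log2 fold changes of mt-Tc ran from -1.29 at 12PM to 1.33 at 8PM. Those of mt-Tp ran from -0.55 at 12PM to 0.98 at 12AM, and those of mt-Rnr2 from -0.52 to 0.81 at the same times. All 3 were lowest at 12PM. The mt-Rnr2 call was lost in 17 of 48 fits that left out 1 library, of which 5 left out a library of 12PM, 2 of 4PM, 3 of 8PM, 5 of 12AM and 2 of 4AM, with an adjusted p of 0.0201 to 0.0781 by edgeR over the 48. The calls of mt-Tc and mt-Tp held in all 48. With the lymphocyte markers as a covariate edgeR called 2 genes, mt-Tc and mt-Atp6, and mt-Tp and mt-Rnr2 were lost, with adjusted p of 0.147 and 0.0798. With the TEC share as a covariate all 3 calls were lost, with adjusted p of 0.317 for mt-Rnr2, 0.375 for mt-Tp and 0.402 for mt-Tc by edgeR.

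Variation over the day was then tested within each diet. In ad-lib, edgeR called 0 of 27 mt- genes as varying over the 6 times, against 0.0551% of all genes, and 0 with a 24-h harmonic, against 0.0801%. The counts at an unadjusted p under 0.05 were 2 and 3, against 6.67% and 11.4% of all genes, DESeq2 called 4 and 0, and limma voom called 0 and 0. In TAN, edgeR called 4 of 27 as varying, against 23% of all genes, and the same 4 genes had a 24-h harmonic, against 19.8%. These were both rRNAs, mt-Tp and mt-Tc. DESeq2 called 11 and 7 mt- genes and limma voom 7 and 9, among them these 4 and also mRNAs, for variation over the times mt-Atp6, mt-Co1, mt-Cytb, mt-Nd1, mt-Nd4 and mt-Nd5 by DESeq2 and mt-Nd5 by voom, and for the harmonic mt-Co1 and mt-Nd4l by DESeq2 and mt-Co1 and mt-Nd5 by voom. With the TEC share as a covariate edgeR called mt-Rnr1 and mt-Rnr2 as varying and mt-Rnr2 with a harmonic. Shares of all genes called were not computed for DESeq2, voom or this covariate, so these counts cannot be set against a background.

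For mt-Rnr2 in TAN, the mean CPM was 573 ± 102 at 12PM (SD, n = 4), 572 ± 163 at 4PM and 576 ± 73.7 at 4AM, and 1539 ± 331 at 12AM. The 4 libraries of 12AM were above all TAN libraries of the other times. Its amplitude was 0.47 on the log2 scale with a peak at labelled hour 0.0772, just past midnight, and adjusted p of 0.00251 for the harmonic and 6.17e-05 for any variation by edgeR. mt-Rnr1 had an amplitude of 0.49 with a peak at hour 23.1 and adjusted p of 0.00251 and 0.000103 by edgeR. The fitted harmonics of mt-Tp and mt-Tc peaked earlier, at hours 20.8 and 20.1, with amplitudes of 0.54 and 0.76. Their adjusted p of the harmonic were 0.00489 and 0.00103 by edgeR. For mt-Tp the highest TAN library was at 12AM, with 243, 209, 223 and 402 CPM there and 250, 137, 225 and 270 CPM at 8PM. In ad-lib the amplitude was 0.13 for mt-Rnr2, 0.17 for mt-Rnr1, 0.29 for mt-Tp and 0.42 for mt-Tc, none called. Whether the harmonics differ between diets was not tested. Under the time labels of the study's table these peak hours would move by 12 h.

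The make-up of mt- counts moved with the share of counts on TEC loci. In the 16 libraries with the lowest TEC share, mt-Nd5 held 0.703% to 3.15% of mt- counts (median 1.53%), and in the 16 with the highest it held 4.24% to 7.18% (median 5.21%), with no overlap. mt-Co1 went the other way, with 57.7% to 71.3% (median 61.7%) in the lowest 16 and 43.1% to 53.1% (median 49.5%) in the highest 16. Both diets were in both sets, 9 TAN and 7 ad-lib libraries in the lowest and 5 TAN and 11 ad-lib libraries in the highest. All 4 TAN libraries of 8PM were in the lowest set, at 0.0390, 0.0394, 0.0294 and 0.0364% of counts, where the ad-lib libraries of 8PM had 0.104, 0.0840, 0.103 and 0.0807%. At 4PM the TEC share did not overlap either, at 0.0882, 0.0926, 0.108 and 0.110% in ad-lib and 0.0458, 0.0798, 0.0327 and 0.0847% in TAN libraries. With this share as a covariate, chosen after the values were seen, edgeR called 0 mt- genes at 4PM, at 8PM, in the mean over times and for a TAN effect that differs between times, and mt-Nd5 at 8PM had a log2 fold change of 0.42 with an adjusted p of 0.732. For 4PM and 8PM, where the share separates the diets, it and TAN feeding cannot be told apart.

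**Figure D5:**
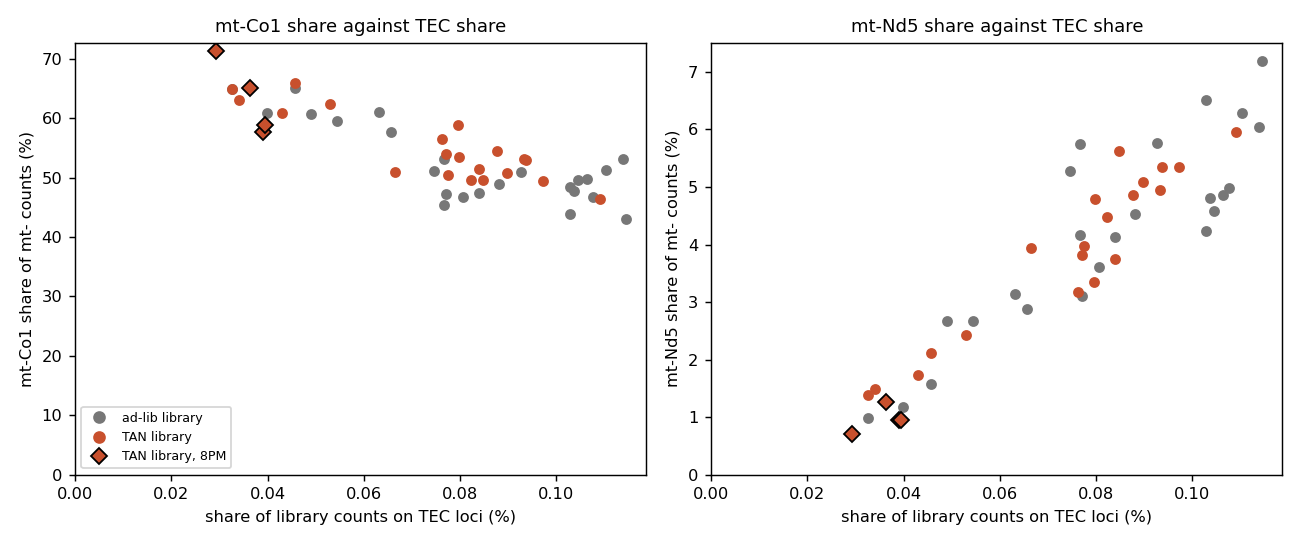
Share of mt- counts on mt-Co1 (left, %) and on mt-Nd5 (right, %) against the share of library counts on TEC loci (%), with a point for each of 48 libraries. The 4 TAN libraries of 8PM (diamonds) lie at the low end of the TEC share, with mt-Co1 at 57.7% to 71.3% and mt-Nd5 at 0.703% to 1.26% of mt- counts.

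Nuclear subunits of the same complexes passed the test in larger numbers. At 4PM 71 of 75 nuclear subunit genes of complexes I to V rose in edgeR's test, and 0 fell, with a median log2 fold change of 1.15, against 15.3% of all genes called in either direction. At the same time the 8 adipocyte markers had a median log2 fold change of 1.06, with 1 called, and the 10 lymphocyte markers of -3.43, with 2 called, and their part in the rise was not tested. The rise covered 35 of 36 genes of complex I, 4 of 4 of complex II, which has no mitochondrial subunit, 9 of 9 of complex III, 11 of 11 of complex IV and 12 of 15 of complex V. The largest were Cox7a1, a complex IV subunit of muscle and brown fat, at 2.43 ± 0.72 (SE), and Ndufa12 of complex I at 2.01 ± 0.43. At 8PM 23 of 75 rose (median 0.69), against 11.7% of all genes called, while the 13 mitochondrial mRNAs had a median of -0.36. This median counts each mRNA alike, and mt-Co1 was at 18924 to 31197 CPM in ad-lib and 26406 to 59897 CPM in TAN libraries. These libraries overlapped, and DESeq2 called mt-Co1 at 8PM where edgeR did not. Mitochondrial mRNAs together held a mean of 5.61% of library counts in ad-lib and 5.82% in TAN, with overlapping libraries. In the mean over times 46 of 75 rose, against 5.42% of all genes called, led by Uqcrq of complex III at 0.63 ± 0.13. At 12AM 0 of 75 were called, against 0.15% of all genes, with a median of 0.83 next to 0.82 for the mitochondrial mRNAs. Counts of mitochondrial mRNA for each nuclear subunit count were 3.82, 3.38, 4.21 and 3.59 in ad-lib and 3.14, 2.87, 2.94 and 3.02 in TAN libraries at 8PM, which did not overlap. The difference between the nuclear and the mitochondrial genes was not tested.

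Nuclear genes that maintain and express mitochondrial DNA are read against the 15.3% and 11.7% of all genes that edgeR called at 4PM and 8PM. Of 9 transcription genes, such as the polymerase Polrmt, edgeR called 0 at 4PM and 0 at 8PM, with medians of 0.10 and 0.09. Of 10 replication and nucleoid genes, 1 rose at 4PM, the topoisomerase gene Top1mt at 0.67 ± 0.23 (SE), and 0 were called at 8PM. Of 28 genes of mitochondrial RNA processing, stability and decay, 4 rose at 4PM, led by Hsd17b10, a subunit of the RNase P that frees the 5′ ends of mitochondrial tRNAs, at 1.19 ± 0.30, and by Rexo2, an exonuclease of short RNAs, at 1.01 ± 0.22. At 8PM Pus1, a pseudouridine synthase, rose by 0.62 ± 0.20 and Pnpt1, part of the RNA decay machinery, had a log2 fold change of -0.55 ± 0.16, both called. Of 20 mitochondrial aminoacyl-tRNA synthetase genes, which load tRNAs with their amino acids, Fars2 (phenylalanine) rose at 4PM at 0.71 ± 0.25, Mars2 (methionine) fell there at -0.94 ± 0.23 and Wars2 (tryptophan) fell at 8PM at -0.83 ± 0.26. Of 8 regulators of mitochondrial biogenesis, Esrra rose at 4PM at 1.06 ± 0.33 and Pprc1 fell there at -1.84 ± 0.60, and Ppargc1a, the coactivator PGC-1α, fell at 8PM at -1.56 ± 0.49. Ucp1, the uncoupling protein that defines brown and beige adipocytes, had 0 counts in 22 of 48 libraries and at most 3.18 CPM. Of 7 brown and beige adipocyte genes tested, 2 rose at 4PM, Cidea, which encodes a lipid droplet protein, at 1.72 ± 0.42 and the fatty acid elongase gene Elovl3, which was at 0 in 14 of 48 libraries.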

How the data were processed

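The authors selected poly-A RNA, primed it with random hexamers, sequenced paired-end reads and deposited raw counts per gene for each of 48 libraries, without normalization, with a gene length for each gene. The submitters' processing notes name TopHat 1.3.3, DESeq2 1.20.0, limma and edgeR. How reads with several matches were counted, and whether libraries kept strand, is not given in the sources used here, so that reads of a gene and of an antisense transcript cannot be told apart. The deposited FPKM values are means over the 4 libraries of a group and were not used. Positions in the deposited table equal those of GENCODE M21 (GRCm38) for 98.1% of the 54532 genes and for all 37 mt- genes, and sequences come from the M21 transcripts.

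Groups follow the diet and time labels. Counts were fitted with edgeR 4.0.16 in R 4.3.3 (filterByExpr with a minimum count of 10, TMM factors, 1 robust quasi-likelihood model over 12 groups of 4, BH over 19977 genes, called at an adjusted p under 0.05). CPM used TMM library sizes. Contrasts were TAN minus ad-lib at each time and over the mean of 6 times, the difference of these between times, and variation over the times and a 24-h harmonic in each diet. Shares and ratios of mt- counts were computed per library from the counts, without a test. mt- transcripts were aligned to all other transcripts with BLAST 2.17.0 (E-value up to 1e-10). The model was tested on simulated counts.

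Protein and rRNA genes were named when called, when holding at least 1 percent of mt- counts, or when lowest of their complex; tRNA genes when called, among the 4 with the highest mean, or mostly at 0; of other lists at most 2 called genes in each direction. Other genes that are named were chosen after their values were seen. The members, the lists and these rules were chosen with earlier results of these data known. Alternatives were other filters, scalings, tests (DESeq2 1.42.0, limma 3.58.1 voom), thresholds, a covariate of lymphocyte markers, the replicate number as a block, separate fits per time and leaving out each library.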

Additional observations from a re-analysis of the deposited data

Results flagged for a closer look

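In 144 groups of 4 libraries examined for 12 measures of the mt- genes, 10 held a library far from its other 3, by a rule that chance meets in about 1 in 20 groups. The share of counts on mt- genes was 3.57% in ad-lib replicate 2 of 12PM against 5.20% to 5.45% in the others. It was 11.9% in TAN replicate 4 of 12AM against 6.38% to 6.77%, and mt-Nd5 in the same library had 5903 CPM against 1302 to 1633 CPM. mt-Co1 had 45042 CPM in ad-lib replicate 3 of 4AM against 23488 to 26203 CPM. That library also had the 6962 CPM of skeletal muscle markers and 12.6 CPM of lymphocyte markers, against 1224 to 2524 CPM in its group, and their part in the mt-Co1 value was not tested.

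In TAN at 8PM, replicate 4 had 1159 CPM of mt-Nd5 against 427 to 520 CPM in the others, and 0.282 CPM of mt-Te against 0. Counts of mt-Tp for each 100 counts of mt-Cytb were 2.16 in ad-lib replicate 4 of 4PM against 1.60 to 1.69, 2.62 in TAN replicate 1 of 12AM against 1.38 to 1.49, and 1.50 in ad-lib replicate 3 of 4AM against 1.99 to 2.05. mt-Tp had 166 CPM in TAN replicate 2 of 4PM against 219 to 229 CPM.

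The TAN effect differed between times by edgeR's F test with BH adjustment for mt-Rnr2 (adjusted p = 0.0442), mt-Tp (adjusted p = 0.0177) and mt-Tc (adjusted p = 0.00612).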

How the results depend on the processing

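The main counts of mt- genes called were 0 at 8AM, 12PM, 12AM and 4AM, 1 at 4PM, 3 at 8PM, 1 for the mean effect, 3 for an effect that differs between times, 0 and 0 in ad-lib over the times and with a harmonic, and 4 and 4 in TAN. With DESeq2 they were 1 at 12PM, 6 at 8PM, 5 at 12AM, 7 for the effect that differs, 4 in ad-lib over the times, and 11 and 7 in TAN. With limma voom they were 4 at 8PM, 5 for the effect that differs and 7 and 9 in TAN. Without a filter on low counts they were 1 at 8PM, 1 at 12AM and 5 and 5 in TAN. With at least 10 counts required in every library they were 4 at 8PM, 5 for the effect that differs, 1 in ad-lib over the times and 5 and 5 in TAN. With RLE in place of TMM factors they were 4 for the effect that differs. With total counts and no scaling factors they were 0 at 4PM, 5 at 8PM and 5 and 7 in TAN. With each time fitted alone they were 3 at 4PM and 0 at 8PM. At an unadjusted p under 0.05 they were 4 at 12PM, 3 at 4PM, 9 at 8PM, 7 at 12AM, 1 at 4AM, 4 for the mean effect, 7 for the effect that differs, 2 and 3 in ad-lib, and 8 and 11 in TAN. A log2 fold change beyond 1 in addition left 0 at 4PM and 0 for the mean effect. Shares of all genes called were not computed for the other tests, filters and scalings, so a higher count need not be particular to mt- genes. The causes of these moves were not tested.

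With lymphocyte markers as a covariate the counts were 0 at 4PM, 5 at 8PM, 2 for the effect that differs (mt-Tc kept, mt-Tp and mt-Rnr2 lost, mt-Atp6 added), 1 in ad-lib over the times, and 8 and 8 in TAN. At 4PM these markers separate the diets, so they and TAN feeding cannot be told apart there. Chosen after seeing the data, the TEC share as a covariate gave 0 at 4PM, 0 at 8PM, 0 for the mean effect, 0 for the effect that differs, 1 in ad-lib over the times, and 2 and 1 in TAN, and it reversed mt-Nd5 at 8PM from -1.75 to 0.42. Counts of the chromosome 1 copies added to the mt- genes, also chosen after seeing the data, gave 1 in ad-lib over the times.

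Leaving out each library in turn gave 0 to 0 calls at 8AM, 12PM and 4AM and for the ad-lib harmonic, 0 to 1 at 4PM, 1 to 5 at 8PM, 0 to 5 at 12AM, 1 to 2 for the mean effect, 2 to 6 for the effect that differs, 0 to 1 in ad-lib over the times, and 4 to 6 and 4 to 8 in TAN. The 5 at 8PM came without TAN replicate 4 of 8PM, which also gave 8 for the TAN harmonic, and the 2 for the mean effect without ad-lib replicate 3 of 4AM. The log2 ratio of the mt- share of counts, TAN over ad-lib, was -0.03 at 8AM (-0.23 to 0.22), 0.35 at 12PM (0.22 to 0.40), 0.40 at 4PM (0.25 to 0.52), 0.06 at 8PM (-0.08 to 0.18), 0.70 at 12AM (0.43 to 0.79), 0.06 at 4AM (-0.10 to 0.35) and 0.26 over the 6 times (0.21 to 0.31). As mt- counts over nuclear respiratory subunit counts it was -0.37 at 4PM, -0.32 at 8PM and 0.24 at 12AM. For mt-Co1 over the other mt- mRNAs it was 0.60 at 4PM (0.43 to 0.76), 1.03 at 8PM (0.83 to 1.14) and 0.43 at 12AM (0.36 to 0.58).

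Same-numbered libraries of the diets deviated together in 13 of 24 pairs (correlation over 0.1, median 0.128, range -0.650 to 0.843, over 5000 genes), so the numbers were not taken to pair them. With the replicate number as a block, edgeR called 2 mt- genes at 8PM, where mt-Te was lost, and 2 for the effect that differs, where mt-Rnr2 had an adjusted p of 0.0524, and no other call changed. Genes with few counts limit the precision: mt-Te, mt-Tr and mt-Atp8 rest on at most 92, 27 and 47 counts in a library.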
